A study of Mus musculus with 12 samples.

Results

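Collagen fibres of a scarred liver are joined, coated and accompanied by other matrix proteins, and 10 genes for such proteins are described here. They are the lysyl oxidases Lox, Loxl1 and Loxl2, the small leucine-rich proteoglycans Lum, Bgn and Dcn, the matrix proteins Mgp and Fstl1, and the elastic fibre genes Eln and Fbn1. The genes were found by symbol, and the FPKM values of all transcripts of a symbol were summed in each liver. All 10 were found among the 24296 gene symbols of the table.

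The study asked whether phloridzin, a glucoside made by plants, acts on liver fibrosis in mice, beside silibinin, a milk thistle compound given to patients with liver disease. RNA of the liver was sequenced in 4 groups of 3 samples each, and every sample is called a liver here. All mice were male C57/BL6N animals, given with a range of body weight and no age. The control group was labelled wild type, with no word on an injection of the oil alone. In the model group CCl4, a liver toxin, was injected into the abdomen, diluted in a larger volume of olive oil, 2 times per week over 8 weeks. The dosage is given as 5 mL/kg, and whether this counts the mixture or the CCl4 alone is not spelled out. Silibinin mice and phloridzin high-dose mice had the same CCl4 injections and received their drug from week 5 on, so each drug was tested while the injury went on. The labels of the phloridzin livers give no dose, and the study's text names this group as the highest of the phloridzin doses. Nothing in the labels ties each liver to a mouse of its own, so p-values measured the spread between these sequenced samples.

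The values were FPKM, fragments scaled to the length of the transcript and to the size of the library. In each library, 98.9 to 99.1% of the low values of long transcripts were whole multiples, within 0.1 and up to 30 fragments, of what 1 fragment is worth, which gave the depth. In units of M, 1000000 fragments, the control livers had 105, 108 and 109.6 M, and the model livers 83.7, 101 and 100.1 M. The silibinin livers had 107, 111 and 110.1 M, and the phloridzin high-dose livers 102, 105 and 98.45 M. Behind a member in 1 liver stood from 28 fragments, for Lox in control 2, to 23934 fragments, for Dcn in silibinin 2. The values of Lox in control 1 and control 2, at 34 and 28 fragments, rest on the fewest of any member.

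The label of the tissue was checked with 5 hepatocyte markers. Alb, the gene of serum albumin, was the most abundant of them at a mean of 18380 FPKM over the 12 livers, and the summed level of the 5 genes was 13580, 20950 and 13610 FPKM in the control livers. It was 15350, 23460 and 26680 FPKM in the model livers, 26520, 32600 and 16880 FPKM in the silibinin livers, and 21050, 28250 and 20870 FPKM in the phloridzin high-dose livers. The sum was carried by Alb, and single markers varied more. Ttr stood at 39.8 FPKM in control 1 and 10.3 FPKM in phloridzin 1, and at 706 to 2530 FPKM in the other livers. None of the 5 hepatocyte markers was differentially expressed (DE) in any comparison by limma with Benjamini-Hochberg adjustment.

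As background, lysyl oxidases are copper enzymes that turn lysine side chains of collagen and elastin into aldehydes, from which the cross-links between neighbouring chains form. Cross-linked collagen is stiff and is digested slowly, and for this reason these enzymes are studied in liver fibrosis. Small leucine-rich proteoglycans sit on collagen fibrils and set their width and spacing, and several of them also bind growth factors such as TGF-beta. Elastic fibres hold a core of elastin on a scaffold of fibrillin microfibrils. In a healthy liver they lie mainly around portal tracts and vessels, and they accumulate in fibrotic septa. Most of these proteins are made by activated hepatic stellate cells and portal fibroblasts.

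Promoter windows are shown for the members that moved together in the model group and had a RefSeq window on the build GRCm38.p6, with 250 bases before the start of the transcript and 50 bases from it on. A window was matched by symbol for 3 of the 10 members, Bgn, Fstl1 and Fbn1. The windows lie at chrX:73483351-73483650 on the plus strand, chr16:37776805-37777104 on the plus strand and chr2:125506389-125506688 on the minus strand. The window of Bgn ends within the first exon of the gene. For Fstl1 and Fbn1 GENCODE M21 has a start further upstream, at 37776873 for the main coding transcript of Fstl1, so most of the window of Fstl1 and all of that of Fbn1 lie inside the span of the gene. Distances are counted from the RefSeq start. Each is printed from 5′ to 3′ along the gene, and capitals mark the letters of a GC box, GGGCGG or, on the other strand, CCGCCC.
Bgn: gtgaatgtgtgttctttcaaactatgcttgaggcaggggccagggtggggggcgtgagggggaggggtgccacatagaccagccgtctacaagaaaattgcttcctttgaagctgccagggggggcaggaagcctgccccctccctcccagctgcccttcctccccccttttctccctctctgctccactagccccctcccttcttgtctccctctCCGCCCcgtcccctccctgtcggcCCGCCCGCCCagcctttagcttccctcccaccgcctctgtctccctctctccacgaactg
Fstl1: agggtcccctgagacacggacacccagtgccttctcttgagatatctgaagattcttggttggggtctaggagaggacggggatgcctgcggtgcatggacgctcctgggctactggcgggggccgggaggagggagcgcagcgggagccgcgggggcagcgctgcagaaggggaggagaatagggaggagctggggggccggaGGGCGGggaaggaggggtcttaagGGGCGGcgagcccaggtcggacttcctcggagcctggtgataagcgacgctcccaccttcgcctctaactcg
Fbn1: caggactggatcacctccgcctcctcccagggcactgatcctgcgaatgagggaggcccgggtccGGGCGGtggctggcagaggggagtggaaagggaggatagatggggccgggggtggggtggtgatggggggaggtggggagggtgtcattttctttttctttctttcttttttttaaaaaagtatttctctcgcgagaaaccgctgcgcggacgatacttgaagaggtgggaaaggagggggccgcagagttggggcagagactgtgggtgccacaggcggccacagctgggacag
The GC box was found on either strand in 3 of 3 windows and in 35.7% of the 32851 promoters of the table. In Bgn it stood from 34 to 29, from 10 to 5 and from 6 to 1 bases before the start, so that the last pair shares letters. In Fstl1 it stood from 46 to 41 and from 22 to 17 bases before the start, and in Fbn1 from 185 to 180 bases before it. A few other motifs were searched on both strands. The letters TATAAA, bound by the general factor TBP, were in 13.6% of the promoters, and TGANTCA, the AP-1 motif, in 7.81%. CAGACA, a motif of SMAD factors, was in 21% and CATTCC, a motif of the YAP partners TEAD, in 14.7%. None of these motifs was in the 3 windows. The windows had 63.7, 66.7 and 60.3% G and C for Bgn, Fstl1 and Fbn1, against a median of 52.7% over the table.

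Between the model group and the control group, the members were higher in every liver of the model group. Each of the 3 model livers was above each of the 3 control livers in 10 of 10 members, and the same held for 45.1% of the 13158 genes tested. The ratio of the mean FPKM of the model group to that of the control group ran from 1.58 for Dcn to 13.4 for Lox. The ratio of Lox leans on control 3, whose value was several times that of either other control. For the test, log2(FPKM + 1) was fitted with limma for the genes with a mean of at least 0.5 FPKM, and a gene was DE where its adjusted p was under 0.05 and its log2 fold change lay beyond 1 or -1. All 10 members passed the filter. Lox, Loxl1 and Loxl2 had control means of 0.134, 0.432 and 0.422 FPKM and passed it through the CCl4 groups. Such a filter favours a rise in those groups, and without a filter the count of DE members was also 9. Of the members 9 of 10 rose, where 10.5% of the genes tested were DE and 9.42% were DE and higher. The exception was Dcn, which passed the adjusted p and not the fold. The median log2 fold change was 1.40 over the members and 0.34 over all genes. In whole liver, more matrix-producing cells and more RNA in each such cell cannot be told apart.

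The choice of scaling moved the level of the whole table. Dividing each liver by its median ratio to the mean liver shifted the median of all genes by 0.34 (log2) between the model group and the control group. It turned 1240 DE genes up and 142 down, 89.7% up, into 493 up and 480 down, 50.7% up. The members stayed higher in the model group in 10 of 10 cases, with a median of 1.15. Of the 9 DE members, 7 passed after this scaling, and Bgn at 0.81 and Fbn1 at 0.999 came under the fold of 1.

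**Figure D1:**
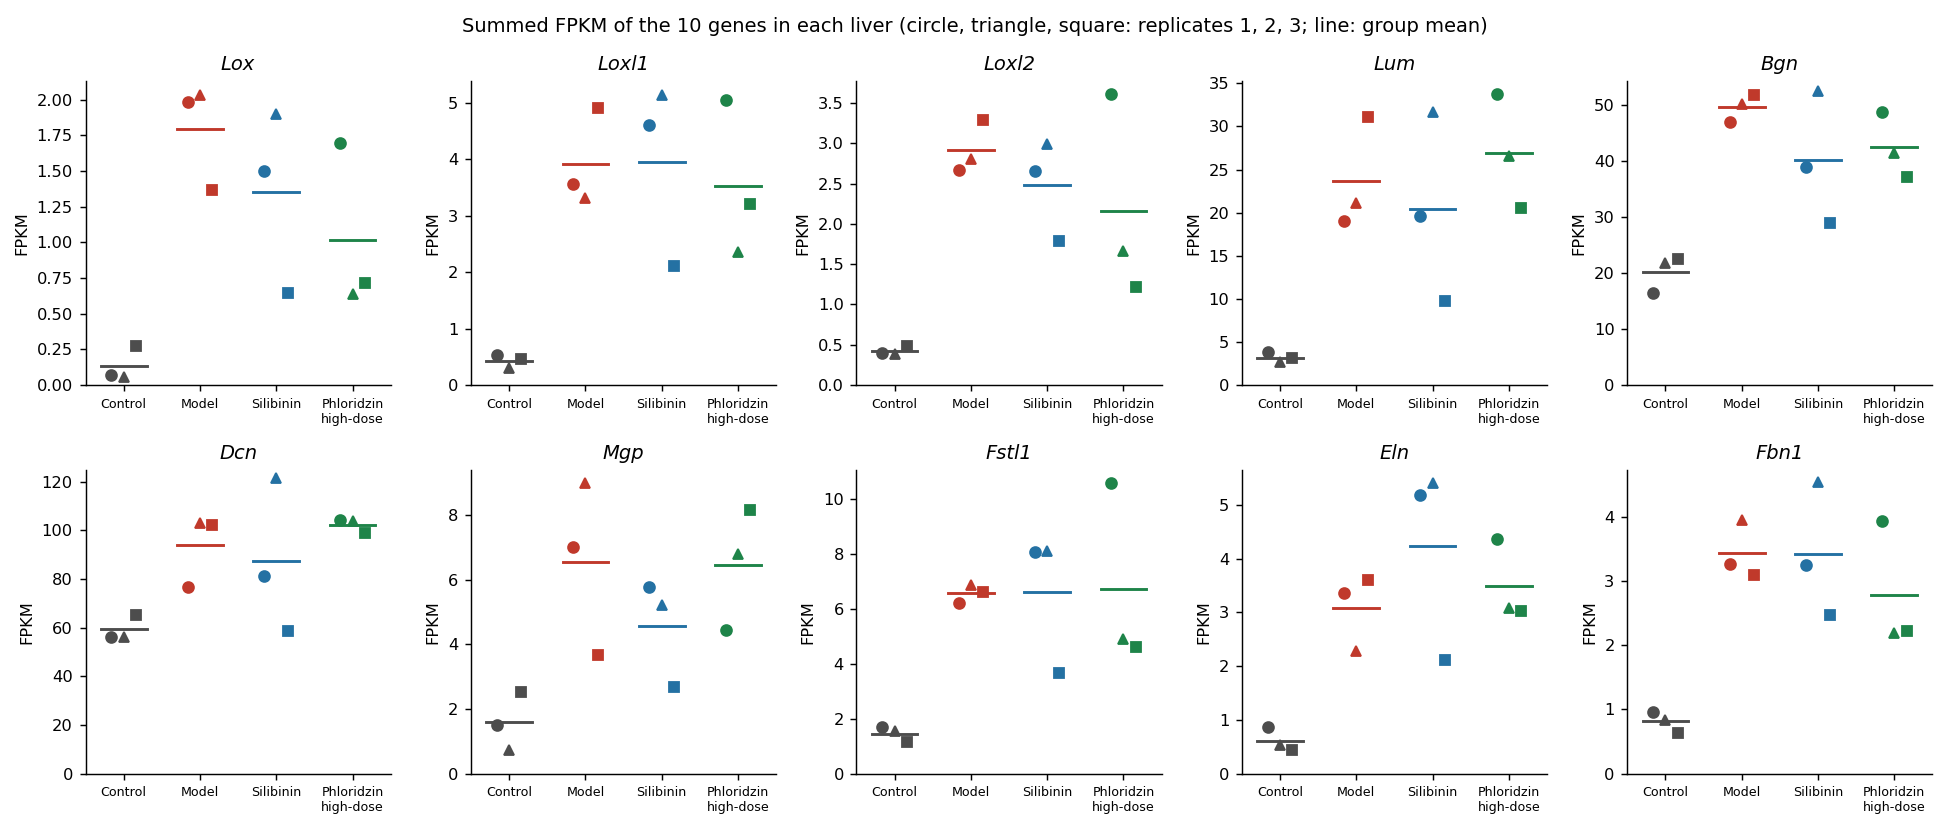
Summed FPKM of the 10 genes in each of the 12 livers, 1 panel per gene with its own axis from 0, with circle, triangle and square for replicates 1, 2 and 3 and a line at the group mean. In every panel the 3 model livers stand above the 3 control livers, and silibinin 3, the square of its group, is the lowest silibinin liver.

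Lox, the founding enzyme of the family, is on chromosome 18 at 52516069-52529867 on the minus strand (GRCm38, as for all genes). It stood at 0.0723, 0.0578 and 0.272 FPKM in the control livers, 1.99, 2.03 and 1.37 FPKM in the model livers, 1.50, 1.90 and 0.645 FPKM in the silibinin livers, and 1.69, 0.641 and 0.717 FPKM in the phloridzin high-dose livers. It was almost silent in the control group, and 1 silibinin liver and a pair of phloridzin high-dose livers lay under every model liver while still above the controls. The group means were 0.134 ± 0.120, 1.80 ± 0.371, 1.35 ± 0.643 and 1.02 ± 0.587 FPKM (SD, n = 3 each), in the order control, model, silibinin, phloridzin high-dose. By limma with Benjamini-Hochberg adjustment, Lox rose in the model group by a log2 fold change of 1.298 ± 0.241 (SE; adjusted p = 0.00261), higher in 3 of 3 livers. Since 1 FPKM was added before the logarithm, this fold understates the change of a gene so low. Against the model group, the phloridzin high-dose group had a log2 fold change of -0.50 with a 95% confidence interval from -1.03 to 0.03, adjusted p = 0.207, the lowest of any member in that comparison.

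Loxl1, the family member tied to elastin, is on chromosome 9 at 58287738-58313186 on the minus strand. Its values were 0.533, 0.302 and 0.459 FPKM in the control livers, 3.56, 3.31 and 4.92 FPKM in the model livers, 4.61, 5.15 and 2.12 FPKM in the silibinin livers, and 5.06, 2.35 and 3.20 FPKM in the phloridzin high-dose livers. The livers of the 3 CCl4 groups overlapped, and each was several times the highest control. Loxl1 rose in the model group by a log2 fold change of 1.77 ± 0.28 (SE; limma, Benjamini-Hochberg adjusted p = 0.00111). Its mean was 0.432 ± 0.118 FPKM in the control group and 3.93 ± 0.865 FPKM in the model group. In the silibinin group it was 3.96 ± 1.62 FPKM, or 101% of the model group (SD, n = 3 each).

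Loxl2, an enzyme of collagen cross-linking, in particular of basement membrane collagen IV, is on chromosome 14 at 69609068-69695834 on the plus strand. It stood at 0.393, 0.383 and 0.489 FPKM in the control livers, 2.67, 2.80 and 3.29 FPKM in the model livers, 2.66, 2.99 and 1.79 FPKM in the silibinin livers, and 3.61, 1.67 and 1.21 FPKM in the phloridzin high-dose livers. The controls and the model livers were each close together, and the phloridzin high-dose livers were spread from the highest value of all to the lowest outside the control group. Loxl2 rose in the model group by a log2 fold change of 1.46 ± 0.24 (SE; limma, Benjamini-Hochberg adjusted p = 0.00144). The mean of the phloridzin high-dose group was 74.1% of the model group's, with a log2 fold change of -0.38 and an interval from -0.91 to 0.15. Without phloridzin 1 the log2 fold change of Loxl2 was -0.688 with adjusted p = 0.0246 by limma with Benjamini-Hochberg adjustment, still short of the fold.

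The other genes of the lysyl oxidase family, Loxl3 and Loxl4, were both tested and were not DE in any of the 6 comparisons. Loxl3 had means of 0.553 ± 0.0502 FPKM in the control group and 1.44 ± 0.341 FPKM in the model group (SD, n = 3 each). Like Dcn it passed the adjusted p and not the fold there (log2 fold change 0.645, 0.419 under the other scaling). Against the control group it did so under silibinin (0.53) and phloridzin (0.641) too. Loxl4 did not pass the adjusted p in any comparison. All 5 family members together gave 3 up and 0 down between the model group and the control group. In the list of genes that process lysyl oxidases or modify and join collagen, 5 of 13 tested rose and 0 fell, where 9.42% of the genes tested were DE and higher, with a median log2 fold change of 0.96. These were Serpinh1 (1.72), the collagen chaperone, Plod2 (1.31), which hydroxylates telopeptide lysines, P4ha1 (1.24), a prolyl hydroxylase subunit, Tgm2 (1.14), a transglutaminase, and Pcolce (1.10), an enhancer of procollagen cleavage. Plod2, at a control mean of 0.412 FPKM, passed the filter through the CCl4 groups, which favours a rise there. Under the other scaling Serpinh1 and Plod2 had log2 fold changes of 1.35 and 1.07, and P4ha1, Tgm2 and Pcolce were under the fold of 1 at 0.85, 0.67 and 0.70.

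Lum, or lumican, a keratan sulfate proteoglycan that regulates fibril assembly, is on chromosome 10 at 97565128-97572703 on the plus strand. It stood at 3.81, 2.65 and 3.11 FPKM in the control livers, 19.0, 21.1 and 31.1 FPKM in the model livers, 19.7, 31.6 and 9.80 FPKM in the silibinin livers, and 33.7, 26.6 and 20.5 FPKM in the phloridzin high-dose livers. Even the lowest CCl4 liver, silibinin 3, was above the highest control, and the 3 CCl4 groups overlapped. Lum rose in the model group by a log2 fold change of 2.54 ± 0.35 (SE; limma, Benjamini-Hochberg adjusted p = 0.0006), and 2.13 under the other scaling. With 1 FPKM added this was the largest of the 10 members, while by voom, which adds less, Lox at 4.126 and Loxl1 at 3.203 were above Lum at 2.878. Its mean was 23.7 ± 6.46 FPKM in the model group and 26.9 ± 6.60 FPKM in the phloridzin high-dose group (SD, n = 3 each), and these neighbours did not differ beyond their spread.

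Bgn, or biglycan, carries chondroitin or dermatan sulfate chains and is on chromosome X at 73483602-73495933 on the plus strand. Its values were 16.5, 21.9 and 22.5 FPKM in the control livers, 47.0, 50.2 and 51.9 FPKM in the model livers, 39.1, 52.5 and 29.0 FPKM in the silibinin livers, and 48.8, 41.5 and 37.2 FPKM in the phloridzin high-dose livers. The model livers lay within a narrow band, and a pair of livers of each drug group lay under it while still above every control. Bgn rose in the model group by a log2 fold change of 1.27 ± 0.20 (SE; limma, Benjamini-Hochberg adjusted p = 0.00131), a call that was lost under the other scaling. Mean levels were 49.7 ± 2.49 FPKM for the model group, 40.2 ± 11.8 FPKM for silibinin and 42.5 ± 5.86 FPKM for phloridzin high-dose (SD, n = 3 each). Neither difference from the model group passed the test, with adjusted p = 0.31 and 0.509 by limma with Benjamini-Hochberg adjustment.

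Dcn, or decorin, the most abundant of the 10 members in every group, binds collagen and TGF-beta and is on chromosome 10 at 97479609-97518143 on the plus strand. It stood at 56.4, 56.3 and 65.1 FPKM in the control livers, 76.6, 103 and 102 FPKM in the model livers, 81.4, 122 and 58.7 FPKM in the silibinin livers, and 104, 104 and 99.1 FPKM in the phloridzin high-dose livers. The control level was already high, the phloridzin high-dose livers were almost equal, and silibinin 3 lay within the range of the controls. In the model group the log2 fold change was 0.65 ± 0.23 (SE; limma, Benjamini-Hochberg adjusted p = 0.0488), not DE for its size, and 0.18 with adjusted p = 0.583 under the other scaling. The means were 59.2 ± 5.03, 93.8 ± 14.9, 87.2 ± 31.8 and 102 ± 2.85 FPKM (SD, n = 3 each), in the order control, model, silibinin, phloridzin high-dose.

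Among the 8 small leucine-rich proteoglycans tested, Bgn and Lum were the 2 that rose in the model group, 0 fell, and the median log2 fold change was 0.59. The other proteoglycans gave 2 up and 0 down of 12 tested, with a median of 0.17, below that of all genes. These were Srgn (1.65), the proteoglycan of secretory granules of blood cells, and Gpc3 (1.64), a glypican of the cell surface. Some genes of this list were under the filter and not tested, so the counts leave them out. Among them Vcan had means of 0.0740, 1.43, 0.222 and 0.243 FPKM in the order control, model, silibinin, phloridzin high-dose. Hspg2 went the other way, at 0.726 FPKM in the control group and 0.387 FPKM in the model group. Among the genes that build glycosaminoglycan chains, 3 of 24 rose and 0 fell, with a median of 0.40. They were Chst11 (1.36), a chondroitin sulfotransferase, Chsy3 (1.17) and Chpf (1.10), which lengthen chondroitin chains. Chst11 passed the filter through the model group, which favours a rise in that group. Under the other scaling Srgn, Gpc3 and Chst11 had log2 fold changes of 1.24, 1.37 and 1.22, and Chsy3 and Chpf, at 0.81 and 0.80, were under the fold of 1. Of all genes tested 9.42% were DE and higher, too near the counts of these lists to read them as a result.

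Mgp encodes matrix Gla protein, which inhibits calcification and binds BMP ligands, and is on chromosome 6 at 136872435-136875823 on the minus strand. Its values were 1.52, 0.732 and 2.52 FPKM in the control livers, 7.01, 8.99 and 3.69 FPKM in the model livers, 5.78, 5.23 and 2.69 FPKM in the silibinin livers, and 4.44, 6.78 and 8.15 FPKM in the phloridzin high-dose livers. By the SD of log2(FPKM + 1), Mgp varied most of all members within the control group (0.51) and within the model group (0.56), and silibinin 3 came close to the highest control. Mgp rose in the model group by a log2 fold change of 1.54 ± 0.36 (SE; limma, Benjamini-Hochberg adjusted p = 0.0083), the highest adjusted p of the 9 DE members. From 49 to 564 fragments stood behind its values. Of the 6 other genes listed as Mgp partners, 1 rose in the model group, Spp1 (log2 fold change 1.94), the gene of osteopontin, and 0 fell, where 9.42% of the genes tested were DE and higher. Their median log2 fold change of 0.20 was below that of all genes.

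Fstl1 encodes follistatin-like 1, a secreted glycoprotein of the Sparc family, and is on chromosome 16 at 37776873-37836514 on the plus strand. It stood at 1.70, 1.55 and 1.14 FPKM in the control livers, 6.23, 6.86 and 6.61 FPKM in the model livers, 8.07, 8.10 and 3.69 FPKM in the silibinin livers, and 10.6, 4.92 and 4.63 FPKM in the phloridzin high-dose livers. The model livers were nearly equal, whereas each drug group held livers above and below all of them. The means of these 3 groups were alike at 6.57 ± 0.315, 6.62 ± 2.54 and 6.72 ± 3.37 FPKM (SD, n = 3 each), in the order model, silibinin, phloridzin high-dose. Fstl1 rose in the model group by a log2 fold change of 1.63 ± 0.31 (SE; limma, Benjamini-Hochberg adjusted p = 0.00286). Of the 6 other genes tested of the Sparc and follistatin-like family, 3 rose and 0 fell, where 9.42% of the genes tested were DE and higher, with a median log2 fold change of 1.34. These were Sparc (2.09), which binds collagen, Sparcl1 (1.94) and Smoc2 (1.72).

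Eln, the gene of elastin, is on chromosome 5 at 134702593-134747323 on the minus strand. Its values were 0.871, 0.543 and 0.434 FPKM in the control livers, 3.35, 2.29 and 3.61 FPKM in the model livers, 5.18, 5.41 and 2.12 FPKM in the silibinin livers, and 4.38, 3.08 and 3.03 FPKM in the phloridzin high-dose livers. A pair of silibinin livers and 1 phloridzin high-dose liver were above every model liver, and silibinin 3 was below them all. Eln rose in the model group by a log2 fold change of 1.33 ± 0.27 (SE; limma, Benjamini-Hochberg adjusted p = 0.00405). It was the one member with a positive log2 fold change between the silibinin group and the model group, 0.30 with a 95% confidence interval from -0.29 to 0.90, which did not pass the test.

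The transcripts behind the sum of Eln differed between livers. A retained-intron transcript, ENSMUST00000202570, made up 1.42, 0 and 0% of the sum in the control livers and 42.8, 22.7 and 13.4% in the model livers. Its share was 54.7, 59.1 and 53.3% in the silibinin livers and 29.0, 55.7 and 0.44% in the phloridzin high-dose livers, so the phloridzin high-dose livers spanned nearly the whole range. With the protein-coding transcript of Eln alone, an alternative chosen after seeing the data, the group means were 0.441 ± 0.166, 1.56 ± 0.749, 1.27 ± 0.540 and 2.07 ± 0.953 FPKM (SD, n = 3 each), in the order control, model, silibinin, phloridzin high-dose. The log2 fold change between the model group and the control group was then 0.79, adjusted p = 0.0664 by limma with Benjamini-Hochberg adjustment, and Eln was no longer DE. Against the control group it was then not DE in the silibinin group (0.63) or in the phloridzin high-dose group (1.04, adjusted p = 0.0608) either. With the coding transcript, the difference between the silibinin group and the model group turned negative, at -0.16. The shares of transcripts were not tested.

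Fbn1 encodes fibrillin-1, the main protein of microfibrils, and is on chromosome 2 at 125300594-125507993 on the minus strand. It stood at 0.965, 0.838 and 0.634 FPKM in the control livers, 3.26, 3.95 and 3.09 FPKM in the model livers, 3.25, 4.53 and 2.47 FPKM in the silibinin livers, and 3.94, 2.19 and 2.23 FPKM in the phloridzin high-dose livers. The CCl4 livers formed 1 overlapping range, with a pair of phloridzin high-dose livers at its low end, and none came down to the controls. Fbn1 rose in the model group by a log2 fold change of 1.29 ± 0.21 (SE; limma, Benjamini-Hochberg adjusted p = 0.00138), a call lost under the other scaling at 0.999. With the highest transcript per gene in place of the sum, Fbn1 had adjusted p = 0.0633 and Eln 0.0819 by limma with Benjamini-Hochberg adjustment, and neither was DE. Its longest coding transcript was listed at 0 in control 1 and in silibinin 3, where a shorter coding transcript took 69.8 and 90.5% of the sum. For Fbn1, 20.1% of the exon bases are shared with Gm9913 on the opposite strand, a gene with a mean of 0.0406 FPKM. Shared exon bases on the opposite strand came to 5.57% for Loxl2, 3.3% for Eln and 0.628% for Lox. Whether the counting used strand is not given in the sources used here, so fragments of such pairs may not be told apart.

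**Figure D2:**
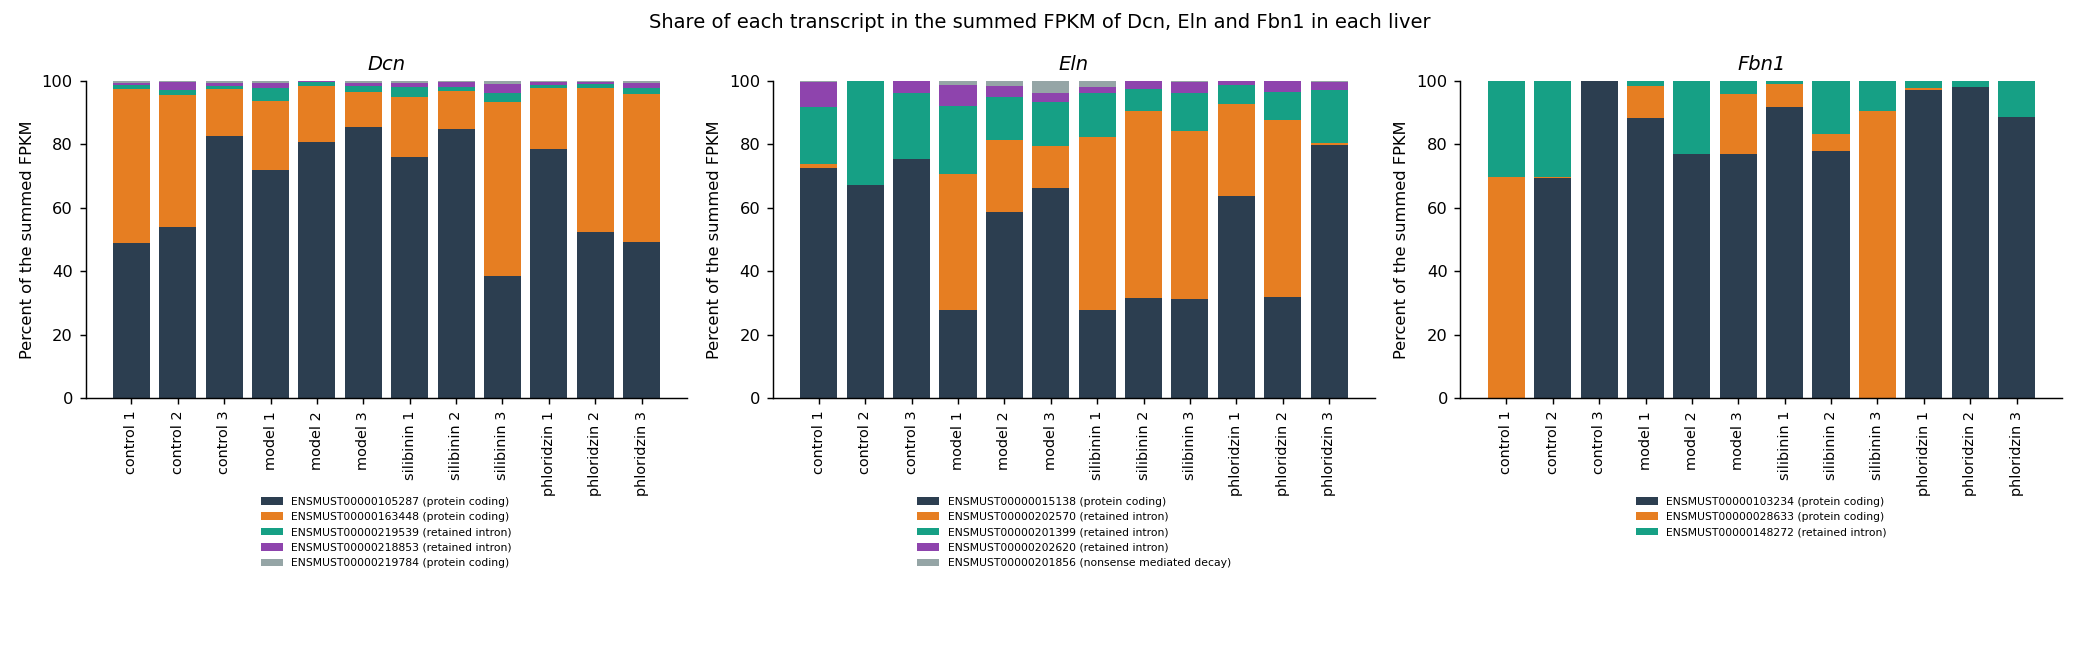
Share of each transcript, in percent of the summed FPKM, for Dcn, Eln and Fbn1, with 1 stacked bar per liver. The retained-intron transcript ENSMUST00000202570 of Eln takes 53.3 to 59.1% in the silibinin livers and 0 to 1.42% in the control livers. Another retained-intron transcript of Eln, ENSMUST00000201399, takes 6.99 to 13.7% in the silibinin livers and 17.7 to 33.0% in the control livers. The shorter of a pair of coding transcripts takes 90.5% of Fbn1 in silibinin 3.

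Transcripts also differed in other members. Dcn was carried by a pair of coding transcripts of equal length, the first of which took 38.4% of the sum in silibinin 3 and 85.4% in model 3. Lox was carried in the control livers by 1 coding transcript, while the other coding transcript was listed at 0 in all 3 and took 54.3 to 88.9% in the 9 CCl4 livers. Loxl1 and Lum had 1 transcript each in the table.

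In the elastic fibre list 9 of 13 tested genes were up in the model group, where 9.42% of the genes tested were DE and higher, 0 were down and the median log2 fold change was 1.07. Besides Eln and Fbn1 these included Ltbp2 (2.33), which binds fibrillin, and Emilin1 (1.26), a glycoprotein at the elastin surface. Fbln5 (1.16), Mfap4 (1.10), Fbln2 (1.07), Fbln1 (1.02) and Efemp2 (1.00) completed the count, and fibulins such as Fbln5 and Efemp2 bring elastin and lysyl oxidases to the microfibrils. Ltbp2 and Mfap4 had control means of 0.184 and 0.254 FPKM and passed the filter through the CCl4 groups, which favours a rise there. After the other scaling, Eln at 1.06 and Ltbp2 at 2.09 stayed above a log2 fold change of 1, and the remaining 7 were between 0.70 and 0.999. Over all 8 lists, 79 genes other than the members were tested, of which 21 rose and 0 fell, with a median of 0.55 against 0.34 over all genes. Under the other scaling Plod2, Serpinh1, Srgn, Gpc3, Chst11, Ltbp2, Spp1, Sparc, Sparcl1 and Smoc2 stayed above a log2 fold change of 1. The rest of the 21 came under it. These lists, like the members, are described by counts and were given no test of their own.

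Silibinin did not bring any member to the threshold against the model group. None of the 10 members was DE between the silibinin group and the model group, where 4.0% of the genes tested were DE, 98 up and 428 down. At an unadjusted p under 0.05 the members counted 0, against 29.2% of the genes tested, and voom on recovered fragment numbers also called 0. In no member were all silibinin livers on one side of all model livers, which 36.7% of the genes tested did. The log2 fold changes ran from -0.42 for Mgp to 0.30 for Eln, with a median of -0.17 beside -0.15 for all genes. In 8 of 10 members the 95% confidence interval lay between -1 and 1, and in Lum and Mgp it reached below -1. With 1 FPKM added, a doubling or halving of a member at a few FPKM gives less than 1 on this scale, so such a change may lie inside these intervals.

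Scaling mattered for the sign of such small differences. The other scaling shifted the median of all genes by -0.16 between the silibinin group and the model group and gave 188 DE genes up and 237 down, 44.2% up in place of 18.6%. The signs of Loxl1, Dcn, Fstl1 and Fbn1 turned from negative to positive, and the median of the members became 0.02. No member was DE after it.

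For phloridzin, too, no member reached the threshold against the model group. Of the genes tested, 3.52% were DE in that comparison, 79 up and 384 down, and 0 of the 10 members. At an unadjusted p under 0.05 the members again counted 0, against 27.8% of the genes tested, and voom called 0. The groups did not overlap for 30.6% of the genes tested and for 0 members. Log2 fold changes ran from -0.50 for Lox to 0.18 for Lum, with a median of -0.10 beside -0.11 for all genes. The 95% confidence interval lay between -1 and 1 in 9 of 10 members, all but Lox. The other scaling shifted all genes by -0.14, changed the split to 140 up and 238 down, 37.0% up in place of 17.1%, and turned the sign of Fstl1 to positive.

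The drug groups were also set against each other, at doses that differ. Between the phloridzin high-dose group and the silibinin group, 0.0228% of the genes tested were DE, which is 3 genes, and 0 members by limma or by voom. At an unadjusted p under 0.05 there were 0 members and 3.75% of the genes tested, and groups without overlap made up 7.99% of the genes and 0 members. The log2 fold changes of the members ran from -0.23 for Fbn1 to 0.50 for Lum. The interval of Lum reached from -0.28 to 1.283 and that of Mgp from -0.36 to 1.23, and the other 8 lay between -1 and 1. Under the other scaling the members ran from -0.25 to 0.47.

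**Figure D3:**
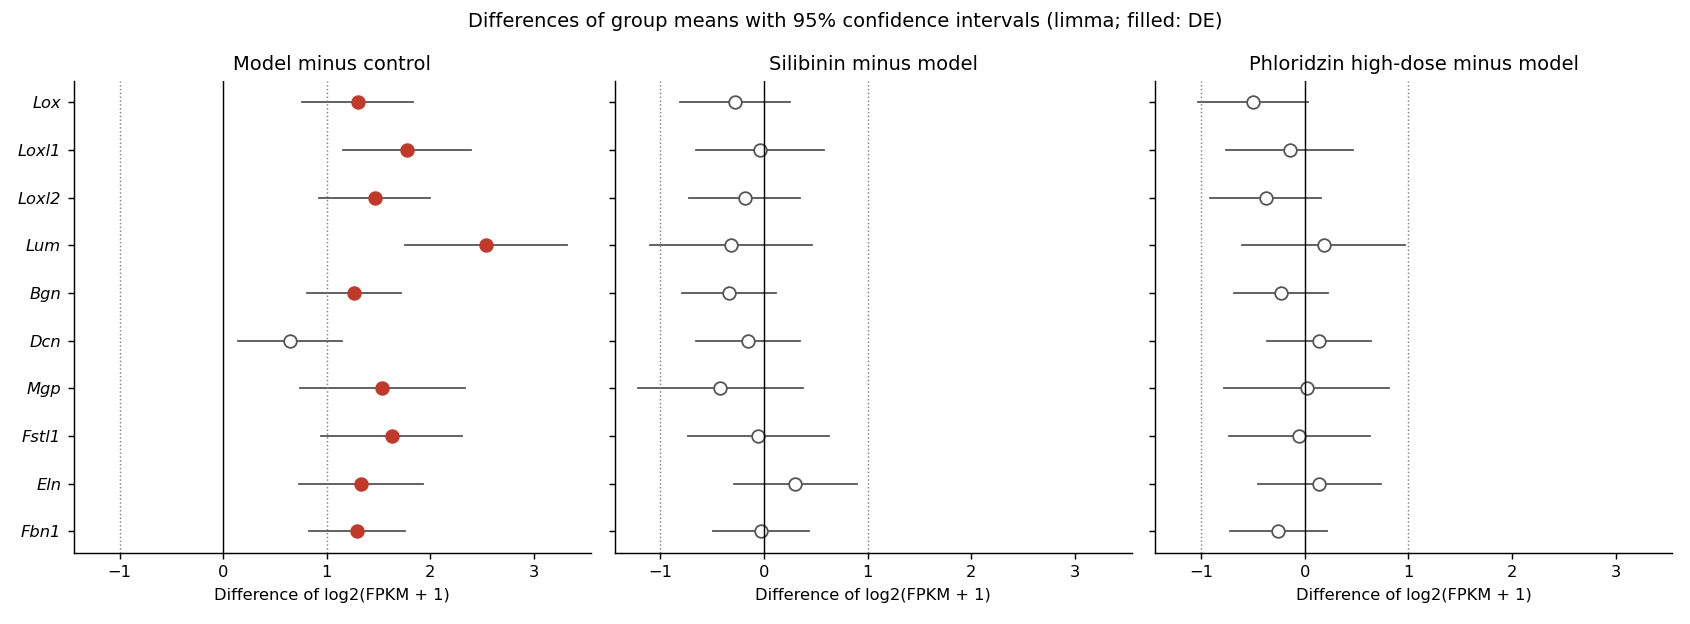
Differences of group means of log2(FPKM + 1) for the 10 genes with 95% confidence intervals from limma, in 3 panels, model minus control, silibinin minus model and phloridzin high-dose minus model, with filled points for DE genes. In the first panel 9 of 10 points are filled and all lie above 0, and in the other panels none is filled and the intervals include 0.

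Set against the control group, most members were DE and higher under each drug. In the silibinin group, 7 of 10 members were DE and higher, where 1.98% of the genes tested were DE and 1.74% were DE and higher. Every silibinin liver was above every control liver in 9 of 10 members, all but Dcn, and in 26.4% of the genes tested. The log2 fold changes ran from 0.49 for Dcn to 2.22 for Lum, with a median of 1.27 beside 0.16 for all genes. Not DE were Dcn, Bgn (0.93, below the fold) and Mgp (1.11, adjusted p = 0.103 by limma with Benjamini-Hochberg adjustment).

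In the phloridzin high-dose group, 8 of 10 members were DE and higher than in the control group, where 3.02% of the genes tested were DE and 2.74% were DE and higher. Every phloridzin high-dose liver was above every control liver in 10 of 10 members and in 26.8% of the genes tested. The log2 fold changes ran from 0.78 for Dcn to 2.72 for Lum, with a median of 1.277 beside 0.18 for all genes. Not DE were Lox (0.80, adjusted p = 0.0683) and Dcn (0.78, adjusted p = 0.0616), both by limma with Benjamini-Hochberg adjustment. The mean FPKM of Lox was 7.59 times that of the control group. Lox was DE by voom (log2 fold change 3.186, adjusted p = 0.031) and with a pseudocount of 0.1. Voom called 7 members in the silibinin group and 9 in the phloridzin high-dose group, where it called 688 and 937 of the 13158 genes tested, more than limma. The comparisons share the control livers with one another and with the model group, and a member DE in one and not in another was not shown to differ between them.

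These 2 counts depended on single livers and settings more than the count of the model group. Leaving out silibinin 1 or silibinin 2 lowered the silibinin count from 7 to 2 or 3, leaving out any 1 control liver lowered it to 4, and without silibinin 3 it was 8. The phloridzin high-dose count went from 8 to 5 without phloridzin 1 or without any 1 control liver. It was 4 under the other scaling, where all genes shifted by 0.21 and 73.6% of the DE genes were up in place of 90.5%. For the silibinin group that scaling shifted all genes by 0.19, gave 71.4% up in place of 87.7%, and left 6 members DE. The members stayed higher than in the control group in 10 of 10 cases under both scalings and both drugs.

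The order of the group means varied among members, with the control group last in all 10. The model group came first for Lox, Loxl2, Bgn, Mgp and Fbn1, the silibinin group for Loxl1 and Eln, and the phloridzin high-dose group for Lum, Dcn and Fstl1. Neighbours among the CCl4 groups did not differ beyond their spread in any of these orders. The step from the lowest CCl4 group to the control group was DE for Loxl1, Loxl2, Lum, Fstl1, Eln and Fbn1 and not for Lox, Bgn, Dcn and Mgp.

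**Figure D4:**
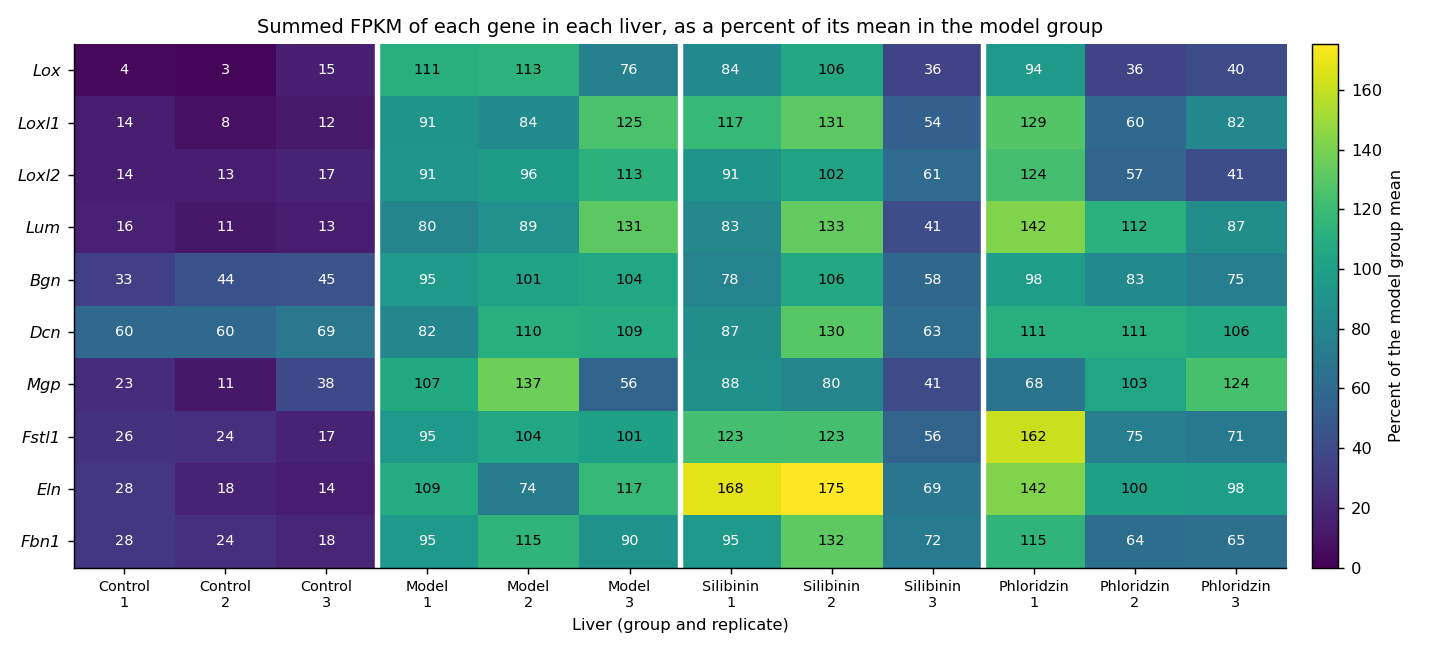
Summed FPKM of each gene in each liver as a percent of its mean in the model group, with genes in lines, livers in columns and colour and printed number for the percent. Silibinin 3 is the darkest column of the drug groups with a median of 57.3%, beside 127% in silibinin 2 and 119% in phloridzin 1.

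The same livers were high or low in most members. Silibinin 3 was the lowest of its group in 10 of 10 members, with a median of 57.3% of the model group mean, and silibinin 2 was the highest in 9 of 10, with a median of 127%. Phloridzin 1 was the highest of its group in 9 of 10 members, with a median of 119%, beside 79.1% in phloridzin 2 and 78.2% in phloridzin 3. The median ratio used by the other scaling, taken over all genes, had a like order. It was 1.040, 1.082 and 0.939 in silibinin 1, 2 and 3, and 1.142, 1.002 and 0.993 in phloridzin 1, 2 and 3. The share of all genes tested with this order of livers was not counted, so the order is not read as particular to the members. The median SD of log2(FPKM + 1) over the members was 0.50 in the silibinin group and 0.37 in the phloridzin high-dose group. In the control group and the model group it was 0.16 and 0.22, and over all genes it was 0.18, 0.20, 0.19 and 0.23 in the order control, model, silibinin, phloridzin high-dose.

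The summed level of 6 myofibroblast markers, carried by Col3a1 and Col1a1, was 12.5, 6.23 and 7.27 FPKM in the control livers, 135, 105 and 133 FPKM in the model livers, 132, 126 and 51.8 FPKM in the silibinin livers, and 196, 68.1 and 47.7 FPKM in the phloridzin high-dose livers. By this sum silibinin 3 was the lowest liver of its group and phloridzin 1 the highest of its own, as with most members. Single markers went other ways, with Col1a2 highest in silibinin 3 of its group, Acta2 and Timp1 lowest in silibinin 2, and Acta2 lower in phloridzin 1 than in phloridzin 2. The most abundant marker was Col3a1, a fibrillar collagen gene that shares the matrix role of the members, and 5 of 6 rose in the model group, while Acta2, the smooth muscle actin of these cells, did not pass (log2 fold change 1.05, adjusted p = 0.134 by limma with Benjamini-Hochberg adjustment). Col1a2 and Timp1 had control means of 0.395 and 0.0637 FPKM and passed the filter through the CCl4 groups, which favours a rise there. None of the 6 was DE between a drug group and the model group. Their part in the levels of the members was not tested.

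Stellate cell markers, 8 genes with Reln the most abundant, summed to 51.7, 56.0 and 53.8 FPKM in the control livers, 85.1, 87.0 and 85.5 FPKM in the model livers, 79.2, 81.0 and 61.5 FPKM in the silibinin livers, and 79.1, 75.9 and 67.5 FPKM in the phloridzin high-dose livers. Here too silibinin 3 was the lowest of its group, and 2 of 8, Lrat and Cygb, rose in the model group. For this and the other marker lists, 9.42% of all genes tested were DE and higher in that comparison, and counts as small as 1 or 2 are not read as a result. Portal fibroblast markers summed to 4.21, 2.81 and 3.998 FPKM in the control livers, 14.0, 14.3 and 16.04 FPKM in the model livers, 13, 18.7 and 7.79 FPKM in the silibinin livers, and 16.2, 17.6 and 10.3 FPKM in the phloridzin high-dose livers. Of these, 1 of 4 tested rose, Dpt, the most abundant, and Gli1 was near 0 at a mean of 0.0715 FPKM. Mesothelial markers gave 1 of 4 tested up, Wt1, with Gpm6a near 0 at 0.0508 FPKM, Msln the most abundant, and sums of 1.43, 1.37 and 2.40 FPKM in the control livers and 6.50, 7.66 and 11.9 FPKM in the model livers. In the silibinin livers the mesothelial sums were 13.02, 8.16 and 7.67 FPKM and in the phloridzin high-dose livers 16.7, 6.26 and 9.53 FPKM, with silibinin 3 the lowest of its group by a small margin. Against the control group, 3 of 4 tested mesothelial markers were DE and higher under silibinin and 4 under phloridzin. Of all genes tested, 1.74 and 2.74% were DE and higher in these comparisons. Upk3b, Upk1b and Wt1 had control means of 0.395, 0.384 and 0.155 FPKM and passed the filter through the CCl4 groups, which favours a rise there. Myofibroblast markers gave 2 and 3 up, portal fibroblast markers 2 and 1, Kupffer cell markers 0 and 2 and cholangiocyte markers 0 and 1. The remaining marker lists gave 0 under both drugs. The part of the marker lists in the levels of the members was not tested.

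The lists for the remaining cell types had 0 DE genes between the model group and the control group, and their group means were as follows. Smooth muscle markers, led by Smtn, had mean sums of 2.18 ± 1.20 FPKM in the control group and 5.22 ± 1.91 FPKM in the model group. Sinusoidal endothelium markers, led by Clec4g, had 56.9 ± 6.22 and 63.7 ± 8.19 FPKM, and stood at 40.3, 72.4 and 28.5 FPKM in the silibinin livers, where silibinin 3 was the lowest of the 12 livers. Kupffer cell markers, led by Cd5l, had 125 ± 32.6 and 185 ± 50.2 FPKM. Cholangiocyte markers, led by Sox9, had 2.31 ± 0.622 and 4.75 ± 0.883 FPKM, and lymphocyte markers, led by Cd3e, 1.53 ± 0.404 and 4.06 ± 1.21 FPKM (SD, n = 3 each).

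Few genes of the 8 lists were DE between a drug group and the model group. In the silibinin group, Srgn, Csgalnact2 and Chst11 fell and 0 rose of the 79 other list genes tested, and in the phloridzin high-dose group Chsy3 and Chst11 fell and 0 rose. With 4.0 and 3.52% of all genes tested DE in these comparisons, the counts did not stand above the background, and the genes are described one by one. Chst11, which adds sulfate to chondroitin, stood at 0.0206, 0.0534 and 0.0165 FPKM in the control livers, 1.29, 2.76 and 1.17 FPKM in the model livers, 0.243, 0.452 and 0.278 FPKM in the silibinin livers, and 0.322, 0.168 and 0.239 FPKM in the phloridzin high-dose livers. Every drug-treated liver lay between the model livers and the controls, with no overlap. Its log2 fold change was -1.01 ± 0.18 under silibinin and -1.09 ± 0.18 under phloridzin (SE; limma, Benjamini-Hochberg adjusted p = 0.00579 and 0.00393). Under the other scaling these were -0.87 and -0.97, short of the fold, and without model 2 they were -0.75 and -0.84. The silibinin call was also lost without silibinin 1 or silibinin 3, short of the fold, and the phloridzin call with only the groups compared (adjusted p = 0.053 by limma with Benjamini-Hochberg adjustment). The means of Chst11 outside the model group were under 0.5 FPKM, so it passed the filter through the model group, and such a filter favours a fall against that group. Without a filter it was DE in both comparisons.

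Chsy3, a chondroitin synthase, stood at 1.83, 1.29 and 2.54 FPKM in the control livers, 5.61, 6.11 and 4.54 FPKM in the model livers, 2.43, 2.06 and 2.34 FPKM in the silibinin livers, and 0.738, 1.94 and 1.82 FPKM in the phloridzin high-dose livers. All 6 livers of the drug groups were below every model liver and within or below the range of the controls. Its log2 fold change against the model group was -1.39 ± 0.22 under phloridzin (SE; limma, Benjamini-Hochberg adjusted p = 0.00307), DE in all 22 alternatives, and -0.96 under silibinin, short of the fold. Csgalnact2, which starts chondroitin chains, had a log2 fold change of -1.20 under silibinin, and -0.95 without silibinin 3. Srgn had -1.33 under silibinin, adjusted p = 0.0202 by limma with Benjamini-Hochberg adjustment. By the same test this call was lost with only the groups compared (-1.33, adjusted p = 0.052) and without model 2 (-1.04, 0.072). It was also lost without silibinin 1 (-1.30, 0.063) or silibinin 3 (-1.12, 0.078), each time by the adjusted p and not the fold. The difference between these genes and the members in their response to a drug was not tested.

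**Figure D5:**
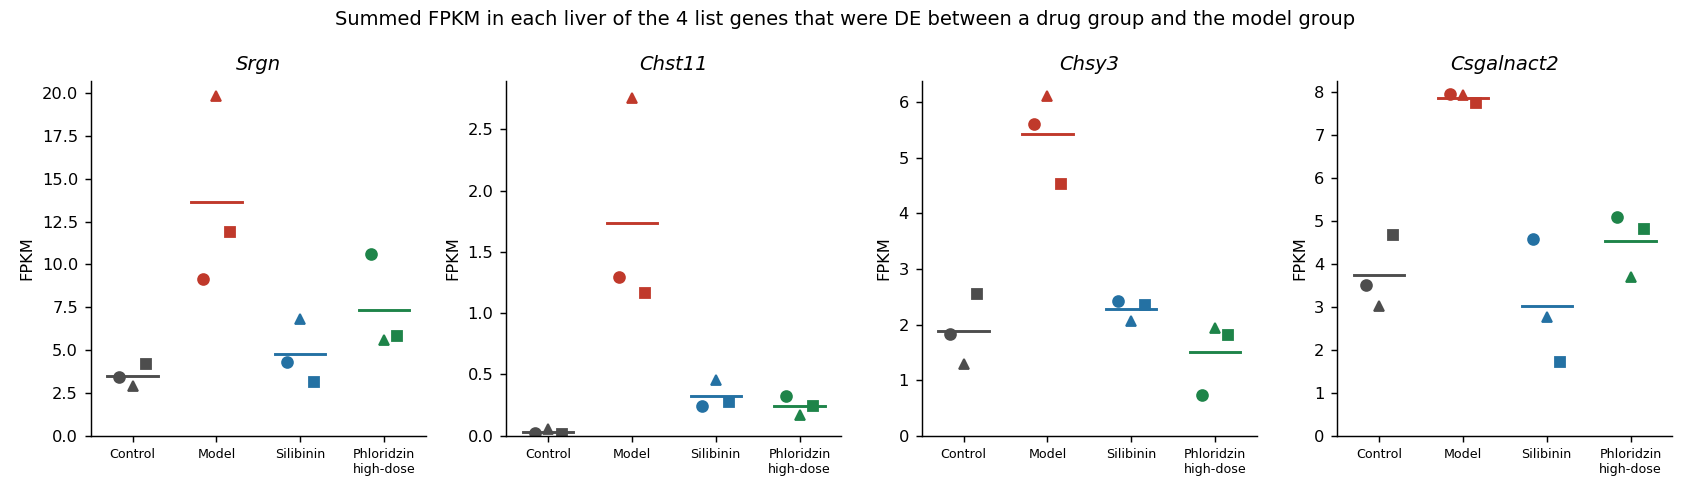
Summed FPKM in each liver of Srgn, Csgalnact2, Chst11 and Chsy3, the 4 list genes that were DE between a drug group and the model group, with 1 point per liver and a line at the group mean. For Chst11 the drug-treated livers lie at 0.168 to 0.452 FPKM, below the model livers at 1.17 to 2.76 FPKM.

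Among the list genes DE in some comparison, P4ha1, Chpf and Tgm2 passed the adjusted p and not the fold against the model group under both drugs. Without a fold cutoff 1849 of the 13158 genes tested passed under silibinin and 1691 under phloridzin, so the number of list genes that did so is not read as a result. P4ha1 had mean levels of 2.89 ± 0.552, 8.18 ± 0.953, 3.60 ± 0.581 and 4.61 ± 1.19 FPKM in the order control, model, silibinin, phloridzin high-dose (SD, n = 3 each), with log2 fold changes of -0.999 under silibinin and -0.73 under phloridzin. For Chpf these were -0.87 and -0.80, and for Tgm2 -0.76 and -0.73. Under the other scaling they were -0.805 and -0.564 for P4ha1, -0.703 and -0.655 for Chpf, and -0.541 and -0.549 for Tgm2. Of list genes named after their values were seen, P4ha2 (-0.80 and -0.64) and B4galt7 (-0.50 and -0.47) also passed the adjusted p under both drugs, in the same order. Under silibinin alone Chsy1 (-0.45) did so, and Xylt2, which starts glycosaminoglycan chains, passed it in the other direction (0.485, adjusted p = 0.0278 by limma with Benjamini-Hochberg adjustment). Under the other scaling P4ha2 had -0.626 and -0.491 and B4galt7 -0.32 and -0.31 in the order silibinin, phloridzin. For silibinin it gave -0.283 for Chsy1 and 0.661 for Xylt2. Against the control group, 6 of the 79 other list genes rose under silibinin and 0 fell, where 1.74% of the genes tested were DE and higher, namely Plod2, Serpinh1, Gpc3, Ltbp2, Sparc and Sparcl1. Under phloridzin 7 rose and 0 fell, where 2.74% of the genes tested were DE and higher, namely Serpinh1, Gpc3, Fbln5, Ltbp2, Sparc, Sparcl1 and Smoc2.

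Genes with the pattern most like that of a member were sought among all genes tested, by the mean absolute difference of standardised log2(FPKM + 1) over the 12 livers. For Loxl1 this was Gpnmb, a glycoprotein of macrophages, at a difference of 0.075, where the median gene was at 0.882. Gpnmb had mean levels of 0.18, 31.5, 28.6 and 25.8 FPKM in the order control, model, silibinin, phloridzin high-dose. For Loxl2 it was Col4a1, a chain of collagen IV, at 0.103, for Lum the metallocarboxypeptidase gene Cpz at 0.117, and for Bgn Pcdhgc3 and Ctsk, the gene of cathepsin K, both at 0.131. Lox was nearest to Cd200r1 at 0.177 and Spp1 at 0.178, Fstl1 to Wls at 0.145, Eln to St8sia4 at 0.145 and Fbn1 to Sestd1 at 0.171. Dcn and Mgp had the least close neighbours, Hlx at 0.246 and Plekha4 at 0.317, where the median gene was at 0.931 and 0.932. In second place stood Adcy3 for Loxl1, Adamts12 for Loxl2, Mxra8 for Lum, Zfp503 for Dcn, Ankrd13c for Mgp, Phlda3 for Fstl1, Mef2c for Eln and Gm47302 for Fbn1.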

How the data were processed

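RNA of 12 mouse livers was measured, in 4 groups of 3 livers taken from the sample titles. The authors deposited FPKM per transcript, a unit already divided by transcript length and library size. The submitters' processing notes list HISAT2 2.1.0, StringTie 1.3.3b, FastQC 0.11.5, bcl2fastq, DESeq 1.28.0 and the mm10 build, with no role or order. The FPKM of the transcripts of a symbol were summed, leaving out transcripts with no symbol, which held 34.0% of the total on average. Transcript types, lengths and coordinates came from GENCODE M21 on GRCm38, where 98.1% of positions matched. With a pseudocount of 1, limma 3.58.1 with a variance trend fitted all 12 livers in 1 model of 4 group means (R 4.3.3, with version 1.17.8 of data.table), and p-values were adjusted by Benjamini-Hochberg over 13158 genes. The exact permutation test planned for members under the filter had no member to apply to. The fit was also run on simulated data, and no result here rests on that run. Python 3.11.15, numpy 2.4.6, pandas 2.3.3 and matplotlib 3.10.9 made the summaries and figures. Members and lists were chosen with earlier results of these data known. Named were all members, the list genes that were DE in any comparison, the 2 genes nearest each member, and, per marker list, the most abundant gene and those with a mean of at most 0.1 FPKM, and other marker and list genes were named after their values were seen. Alternatives were a pseudocount of 0.1, no filter or a mean of at least 1 FPKM, median ratio scaling, only the groups compared, a replicate block, no fold cutoff, the highest transcript per gene, voom on recovered fragments, each liver left out in turn and, chosen after seeing the data, protein-coding transcripts only.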

Additional observations from a re-analysis of the deposited data

How the results depend on the processing

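The count of DE members between the model group and the control group was 9, from 7 to 10 over 10 alternative settings and 9 without any 1 liver, and no member changed direction in any comparison that had called it. Between the drug groups and the model group, and between the drug groups, it was 0 in every alternative run. Against the control group, the silibinin count of 7 was 4 with the highest transcript per gene and from 2 to 8 without 1 liver, with 2 without silibinin 1, 3 without silibinin 2, 4 without any 1 control liver and 8 without silibinin 3. The phloridzin high-dose count of 8 was 4 with median ratio scaling, 3 with only the groups compared, 4 with the highest transcript per gene and from 5 to 8 without 1 liver, with 5 without phloridzin 1 or any 1 control liver. The cause of these changes was not tested. With the replicate block the members counted 9, 0, 0, 0, 6 and 7 in the order model against control, silibinin against model, phloridzin against model, phloridzin against silibinin, silibinin against control and phloridzin against control, and all genes 1363, 508, 449, 3, 237 and 347. Livers with the same number did not pair, with correlations of their deviations from -0.09 to 0.10 in 18 pairs and 2 of 12 livers best matched by their own number. Over all genes, the counts in the same order were 1382, 526, 463, 3, 261 and 398 and ranged over settings from 973 to 4594, 425 to 1849, 350 to 1691, 0 to 5, 117 to 828 and 143 to 1103, with the highest of each without a fold cutoff or with a pseudocount of 0.1 except between the drug groups. Without 1 liver they ranged from 1247 to 1454, 424 to 568, 367 to 638, 1 to 6, 101 to 400 and 214 to 635. Changes over 1.5 times came, for silibinin against control, without control 1 (136), control 2 (155), silibinin 1 (101), silibinin 2 (102) and phloridzin 1 (400). For phloridzin against control they came without control 1 (214), control 2 (240), phloridzin 1 (245) and phloridzin 3 (635), and between the drug groups without silibinin 1 (5), silibinin 2 (1), phloridzin 1 (6) and phloridzin 2 (5). Depth taken from longer transcripts was the same within 0.01 M fragments. The values of Lox in control 1 and control 2, at 34 and 28 fragments, rest on the fewest of any member.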
